A study of Mus musculus with 24 samples.

Results

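Muscle myosin heavy chains are the motor subunits of the thick filament, and 8 of their genes were followed here: Myh3, Myh8, Myh4, Myh1, Myh2, Myh7, Myh6 and Myh7b. They were found by gene symbol among the 24016 symbols of the expression table, and each was represented by its transcript with the highest mean level. Levels are given in RPKM, a read count divided by the length of the transcript's exons in kilobases and by the size of the library in M reads. All 8 symbols were in the table, and 6 of them were tested, having reached 1 RPKM in 6 or more libraries. Myh6 and Myh7b reached 1 RPKM in 0 libraries.

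The table came from poly(A) RNA sequencing of hindlimb muscles of C57BL/6 mice, taken 7 days after the femoral artery of a hindlimb was ligated. The 4 groups of 6 libraries were ischemic gastrocnemius of mice with type 2 diabetes, ischemic gastrocnemius of control mice, normoxic adductor of mice with type 2 diabetes, and normoxic adductor of control mice. All groups carried the ligation, every gastrocnemius library was labelled ischemic and every adductor library normoxic, so the identity of the muscle and its ischemia cannot be told apart. How the diabetes was produced, the age of the mice and whether same-numbered samples of the muscles came from the same animal are not given in the sources used here, so the p-values speak only of the spread among these samples. In tissue RNA, fewer fibres of a type and less RNA per fibre cannot be told apart.

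An adult muscle fibre expresses mainly a single heavy chain, which sets its speed of contraction. In mouse limb muscle Myh4 encodes the fast type IIb chain, Myh1 the fast IIx chain, Myh2 the fast IIa chain and Myh7 the slow type I chain, which is also the beta chain of the heart. Myh3 (embryonic) and Myh8 (perinatal) are the developmental chains, which are silenced in most adult limb fibres and return in fibres that regenerate after injury. Myh6 encodes the alpha chain of the heart, and Myh7b a slow-tonic type chain found in few muscles.

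Depth ran from 7.13 to 15.6 M reads a library. Beneath the labelled groups lay a further division of the libraries, read here from Gapdh, which lay between 677 and 1757 RPKM in a first set of 14 libraries (diabetic 1 to 4 and control 1 to 3 of both muscles) and between 0.365 and 13.7 RPKM in a second set of 10 (diabetic 5 and 6 and control 4 to 6). Within the second set Gapdh also differed between the mice, with 3.71 to 13.7 RPKM in diabetic and 0.365 to 0.831 RPKM in control libraries. Diabetic gastrocnemius library 2 and control gastrocnemius library 3 stood apart from the other 10 gastrocnemius libraries in heavy chain levels, and control adductor library 2 stood apart from the other control adductor libraries in Myh8. Values without these libraries are given beside the differences and correlations they enter most. The libraries were picked for their high heavy chain levels, so the shift of such values and their smaller standard errors follow in part from that choice.

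The 5 developmental and fast genes lie in a single cluster on chromosome 11, in the order Myh3, Myh2, Myh1, Myh4 and Myh8. In mm9, the build of the deposited table, these 5 genes run from 66891802 to 67122135 on the plus strand, a span of 230334 bases. Myh3 lies at 66891802 to 66915793, Myh2 at 66984529 to 67011019, Myh1 at 67013616 to 67038077, Myh4 at 67051314 to 67073949 and Myh8 at 67090626 to 67122135. Myh6 (55560758 to 55585444) and Myh7 (55589525 to 55613386) are neighbours on the minus strand of chromosome 14, and Myh7b lies on the plus strand of chromosome 2 from 155436979 to 155460043. Each value sums reads over the exons of the transcript.

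The sequences before the annotated starts of the 5 cluster genes are shown because neighbouring genes of this cluster went in opposite directions between the muscles. Each is the 250 bases upstream of the start in the RefSeq table of build GRCm38.p6, on the plus strand. Capitals mark the letters TATAAA on either strand, a MEF2 site (the binding site of the MEF2 muscle transcription factors, on either strand), and a word of 14 letters, TTCTAATTATATCC, the longest that the windows of Myh1, Myh2, Myh4 and Myh8 share.
Myh3, chr11:67078050-67078299: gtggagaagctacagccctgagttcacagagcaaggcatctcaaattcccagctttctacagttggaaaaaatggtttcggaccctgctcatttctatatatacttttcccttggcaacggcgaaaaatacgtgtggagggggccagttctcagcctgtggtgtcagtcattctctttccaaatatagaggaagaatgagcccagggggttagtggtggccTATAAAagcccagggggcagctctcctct
Myh8, chr11:67276874-67277123: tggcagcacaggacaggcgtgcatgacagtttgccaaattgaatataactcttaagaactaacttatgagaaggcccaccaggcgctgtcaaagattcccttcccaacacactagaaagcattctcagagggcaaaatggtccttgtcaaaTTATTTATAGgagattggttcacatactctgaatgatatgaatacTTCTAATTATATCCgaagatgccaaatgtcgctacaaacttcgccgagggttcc
Myh4, chr11:67237562-67237811: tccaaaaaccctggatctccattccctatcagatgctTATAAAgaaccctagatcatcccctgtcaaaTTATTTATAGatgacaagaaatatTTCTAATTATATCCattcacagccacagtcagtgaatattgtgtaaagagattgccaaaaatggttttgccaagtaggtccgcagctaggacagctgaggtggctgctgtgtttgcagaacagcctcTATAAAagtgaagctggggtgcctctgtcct
Myh1, chr11:67199852-67200101: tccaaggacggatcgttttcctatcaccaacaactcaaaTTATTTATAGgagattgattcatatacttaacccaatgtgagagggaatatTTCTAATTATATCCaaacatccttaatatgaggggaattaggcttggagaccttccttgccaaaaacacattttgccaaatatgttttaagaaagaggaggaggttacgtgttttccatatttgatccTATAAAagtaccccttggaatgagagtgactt
Myh2, chr11:67170777-67171026: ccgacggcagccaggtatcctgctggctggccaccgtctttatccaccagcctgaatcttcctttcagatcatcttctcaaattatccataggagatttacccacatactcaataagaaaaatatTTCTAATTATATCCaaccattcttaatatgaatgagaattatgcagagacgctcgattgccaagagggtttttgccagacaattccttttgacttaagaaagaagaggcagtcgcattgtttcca

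The shared word began 158 bases before the start in Myh4, 160 in Myh1, 125 in Myh2 and 54 in Myh8. Of 27025 promoter windows of 300 bases in the table, 4 held it on either strand (0.0148%), and these were the 4 heavy chain genes, so the windows of Myh3, Myh7, Myh6 and Myh7b did not hold these letters. The word is common to Myh8 and Myh4, whose transcripts went in opposite directions between the muscles, and it was chosen from these windows, so its count is a description. The match of TATAAA, the core of a TATA box, nearest to the start began 29 bases before the start in Myh3, 31 in Myh4 and 32 in Myh1, and 14.2% of all windows held it. In Myh2 it began 10 bases after the start base and so lies outside the printed stretch, and in Myh8 its match, on the opposite strand, falls inside the MEF2 match. A MEF2 site was found in the windows of Myh1, Myh4 and Myh8 and in 3.26% of all windows. An E-box (CANNTG, the site of myogenic regulators such as MyoD) occurred in 72.2% of all windows and a CArG box in 1.57%, both on either strand. Of the 8 genes, Myh4 held a CArG box.

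Heavy chain genes are alike in their coding sequence, and the labels give 50 sequencing cycles. In the annotated transcripts of GENCODE M21, 27.4% of the stretches of 50 bases of Myh1 also occurred in another gene, against 26.9% for Myh2, 23.0% for Myh6, 22.6% for Myh7, 21.4% for Myh8, 18.9% for Myh4, 4.81% for Myh3 and 0% for Myh7b. Myh1 and Myh2 were the closest pair of the fast genes, with 90.4% identical bases and an identical run of 268 bases, and Myh6 and Myh7 shared 1373 such stretches. How reads that match several genes were placed is not given in the sources used here. If each stretch shared with Myh4 had been counted in both genes, Myh8 would have received 501 RPKM from Myh4 in control adductor, where its deposited level was 3.0 to 35.5 RPKM. Myh2 would have received 535 RPKM, where its level was 18.3 to 442 RPKM. Myh3 would have received 49.5 RPKM from Myh4 in control adductor, where its level was 0.807 to 52.1 RPKM. Levels of Myh1, Myh2, Myh4, Myh8, Myh7, Myh6 and Myh3 are uncertain to the extent that shared reads were dropped or divided. Myh7b shared no stretch. Myh3 shared few. In control adductor library 5 it had 0.807 RPKM beside 4942 RPKM of Myh4. How far reads from Myh4 entered its adductor levels was not tested.

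**Figure D1:**
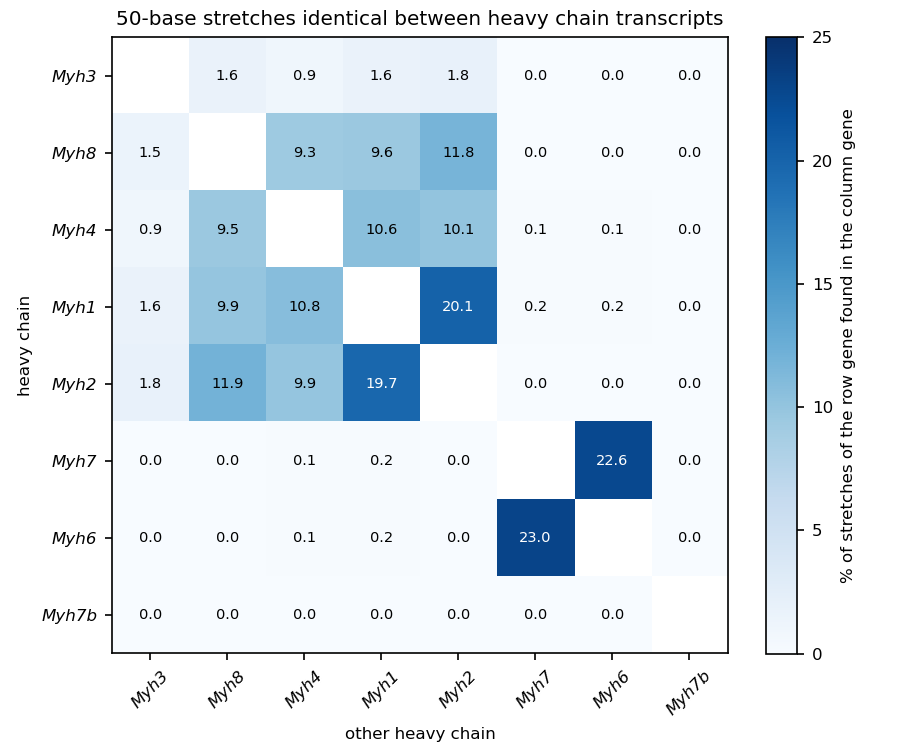
Percent of the 50-base stretches of each heavy chain transcript (rows) that occur without a mismatch in each other heavy chain transcript (columns), from the GENCODE M21 annotation. The fast and perinatal genes Myh8, Myh4, Myh1 and Myh2 form a block with 9.3% to 20.1% sharing, and Myh7 and Myh6 share 22.6% and 23.0%.

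The summed level of the 8 chains was lower in 10 of the 12 gastrocnemius libraries than in every adductor library. It ran from 1814 to 5492 RPKM in diabetic gastrocnemius (median 2425) and from 1666 to 6402 RPKM in control gastrocnemius (median 1983), against 3832 to 7101 RPKM in diabetic adductor (median 6161) and 4040 to 7680 RPKM in control adductor (median 6708). Diabetic gastrocnemius library 2, with 5492 RPKM, and control gastrocnemius library 3, with 6402 RPKM, lay within the adductor range, and the other 10 gastrocnemius libraries lay between 1666 and 2869 RPKM, below every adductor library. The chains took 1.01% to 3.87% of the reads of a gastrocnemius library and 2.31% to 4.64% of the reads of an adductor library.

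The composition differed as well as the sum. Myh4, the type IIb chain, made up 47.7 ± 7.32% of the summed RPKM in diabetic gastrocnemius and 49.8 ± 7.89% in control gastrocnemius, against 82.6 ± 6.44% in diabetic adductor and 87.3 ± 6.58% in control adductor (SD, n = 6 each). In adductor this share was 76.6% to 82.3% in the first library set and 88.5% to 94.2% in the second, without overlap. The means of the first and second set were 78.6% and 90.5% in diabetic and 81.4% and 93.2% in control adductor. The adductor SDs therefore include the gap between the sets. In gastrocnemius the sets overlapped. The developmental chains Myh3 and Myh8 together made up 22.6 ± 11.1% in diabetic and 24.4 ± 10.7% in control gastrocnemius, against 0.300 ± 0.225% in diabetic and 0.410 ± 0.491% in control adductor. The 2 gastrocnemius libraries that stood apart had shares of 6.61% (diabetic library 2) and 7.39% (control library 3), and the other 10 had 14.7% to 35.1%. Every gastrocnemius library, these 2 included, exceeded every adductor library in this share, since the highest adductor value was 1.36%, in control library 2.

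The type IIx chain Myh1 took 23.0 ± 3.67% in diabetic and 20.5 ± 3.35% in control gastrocnemius, against 11.6 ± 4.51% in diabetic and 8.85 ± 3.75% in control adductor (SD, n = 6 each). Its share was higher in all 6 gastrocnemius libraries than in all 6 adductor libraries of the same mouse group, in diabetic and in control mice, although its RPKM was not. Myh2 took 6.30 ± 4.13% and 4.98 ± 3.85% in diabetic and control gastrocnemius and 4.22 ± 1.73% and 2.81 ± 2.30% in diabetic and control adductor, with ranges that overlapped. Myh7 took 0.405 ± 0.399% and 0.293 ± 0.264% in diabetic and control gastrocnemius and 1.29 ± 0.651% and 0.596 ± 0.510% in diabetic and control adductor. In adductor the shares of Myh1, Myh2 and Myh7 also differed by library set without overlap. The first set had 10.1% to 15.9% for Myh1, 3.80% to 5.75% for Myh2 and 0.711% to 2.29% for Myh7. The second set had 4.87% to 8.51%, 0.371% to 2.14% and 0.133% to 0.619%. The highest share in any library was 0.0124% for Myh6 and 0.0188% for Myh7b.

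**Figure D2:**
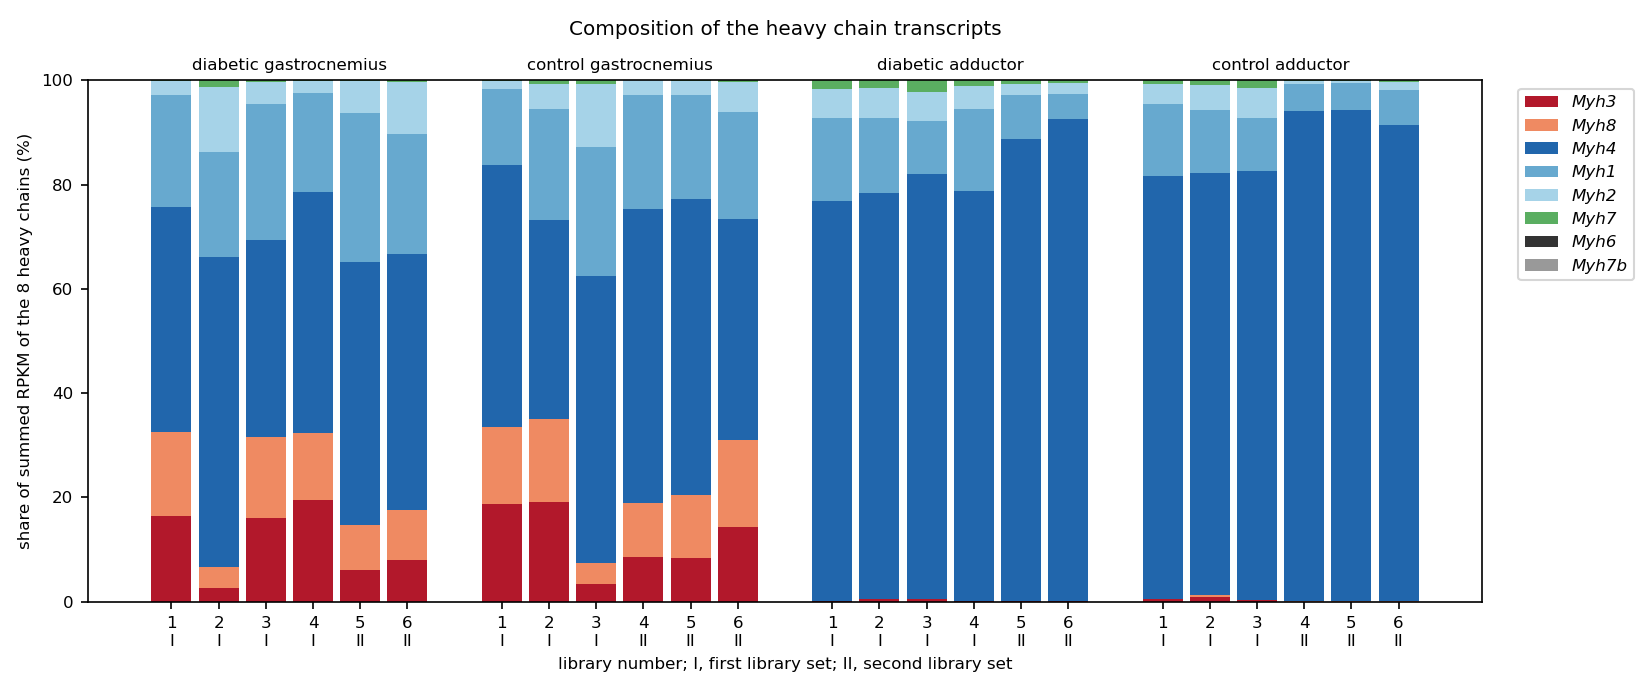
Share of each heavy chain in the summed RPKM of the 8 chains, in percent, for each of the 24 libraries, grouped by mouse and muscle, with the library set marked under each bar. Myh4 fills 76.6% to 94.2% of each adductor bar and 37.9% to 59.5% of each gastrocnemius bar, where Myh3 and Myh8 add 6.61% to 35.1%.

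The embryonic chain Myh3 had 111 to 462 RPKM in diabetic gastrocnemius (median 287) and 148 to 395 RPKM in control gastrocnemius (median 238). In adductor it had 2.22 to 37.4 RPKM in diabetic mice (median 4.86) and 0.807 to 52.1 RPKM in control mice (median 11.8). The muscles did not overlap. Within adductor the level went with the library set: the first set had 2.22 to 52.1 RPKM (median 30.4) and the second set 0.807 to 3.17 RPKM (median 1.95). Myh3 was higher in gastrocnemius by a log2 difference of 4.93 ± 0.83 in diabetic mice (adjusted p = 2.6e-05) and of 5.04 ± 0.83 in control mice (adjusted p = 1.6e-05, limma with Benjamini-Hochberg adjustment over 12382 genes). These differences are on the scale of log2(RPKM + 0.5), and the ± is the standard error. In the first set alone the differences were 4.64 in diabetic and 3.18 in control mice, and in the second set alone 5.50 and 6.90.

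The perinatal chain Myh8 had 156 to 386 RPKM in diabetic gastrocnemius (median 291) and 219 to 313 RPKM in control gastrocnemius (median 264). In adductor it had 2.70 to 6.96 RPKM in diabetic mice (median 4.32), and in control mice 3.0 to 5.34 RPKM in 5 libraries and 35.5 RPKM in library 2. All 12 gastrocnemius libraries lay above all 12 adductor libraries, and the lowest gastrocnemius level was 156 RPKM. Myh8 rose by 5.84 ± 0.41 on the log2 scale in diabetic mice (57.2-fold, adjusted p = 6.5e-10) and by 5.46 ± 0.41 in control mice (44.0-fold, adjusted p = 2.1e-09). By p-value it stood 7th and 9th of the 12382 genes in diabetic and control mice. Without control adductor library 2 the difference in control mice was 5.97.

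Control adductor library 2 also had the highest Myh3 of the adductor libraries, at 52.1 RPKM. Its summed macrophage markers, at 283 RPKM, and fibroblast markers, at 915 RPKM, were the highest of the 12 adductor libraries, and its developing-muscle genes, at 625 RPKM, ranked 3rd. Whether these have a part in its Myh8 level was not tested.

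The type IIb chain Myh4 was the most abundant chain in every library and 14th of all 24016 genes by mean RPKM. It had 904 to 3266 RPKM in diabetic gastrocnemius (median 1017) and 635 to 3524 RPKM in control gastrocnemius (median 1037), against 2937 to 6017 RPKM in diabetic adductor (median 5117) and 3803 to 6367 RPKM in control adductor (median 5432). The highest value of each gastrocnemius group came from the library that stood apart, and in diabetic mice that library overlapped with adductor. Myh4 fell by 1.93 ± 0.37 on the log2 scale in diabetic mice (adjusted p = 0.00012) and by 2.19 ± 0.37 in control mice (adjusted p = 2.3e-05). Without the 2 gastrocnemius libraries that stood apart the differences were -2.21 ± 0.26 and -2.51 ± 0.26 in diabetic and control mice.

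The type IIx chain Myh1 had 450 to 1106 RPKM in diabetic gastrocnemius (median 582) and 307 to 1585 RPKM in control gastrocnemius (median 368), against 317 to 1090 RPKM in diabetic adductor (median 663) and 207 to 961 RPKM in control adductor (median 620). The groups overlapped. The log2 difference between the muscles was -0.04 ± 0.42 in diabetic mice (95% interval -0.92 to 0.84, adjusted p = 0.94) and -0.06 ± 0.42 in control mice (-0.94 to 0.82, adjusted p = 0.91). In adductor the first set lay at 610 to 1090 RPKM and the second at 207 to 462 RPKM, without overlap, and in gastrocnemius the sets overlapped. The sets gave values on either side of 0, at -0.37 and -0.59 in the first set and 0.61 and 0.46 in the second set for diabetic and control mice. With terms for the library set in the fit the differences were -0.38 and -0.57, neither called. Without the 2 gastrocnemius libraries that stood apart the differences were -0.22 ± 0.37 and -0.41 ± 0.37, neither called.

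The type IIa chain Myh2 had 54.7 to 691 RPKM in diabetic gastrocnemius (median 108) and 33.3 to 780 RPKM in control gastrocnemius (median 72.5), against 116 to 392 RPKM in diabetic adductor (median 259) and 18.3 to 442 RPKM in control adductor (median 191). In adductor the first set lay at 219 to 442 RPKM and the second at 18.3 to 131 RPKM, without overlap, and in gastrocnemius the sets overlapped. The log2 difference between the muscles was -0.69 ± 0.81 in diabetic mice (95% interval -2.39 to 1.0, adjusted p = 0.49) and -0.19 ± 0.81 in control mice (-1.89 to 1.5, adjusted p = 0.85). It was -1.30 and -1.37 in the first set and 0.52 and 0.98 in the second. Without the 2 gastrocnemius libraries that stood apart it was -1.16 ± 0.71 and -0.80 ± 0.71, neither called. A 2-fold rise and a 2-fold fall lie within the interval of control mice.

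The slow chain Myh7 had 2.93 to 65.3 RPKM in diabetic gastrocnemius (median 6.12) and 0.351 to 38.3 RPKM in control gastrocnemius (median 4.58), against 33.6 to 163 RPKM in diabetic adductor (median 69.2) and 6.99 to 111 RPKM in control adductor (median 32.8). In diabetic mice 5 of 6 gastrocnemius libraries lay below every adductor library, and in control mice 4 of 6 did. Myh7 fell by 2.96 ± 0.83 on the log2 scale in diabetic mice (adjusted p = 0.0040) and by 2.44 ± 0.83 in control mice (adjusted p = 0.014). Without the 2 libraries that stood apart the differences were -3.54 ± 0.69 and -3.04 ± 0.69 in diabetic and control mice. In adductor the first set had 49.5 to 163 RPKM and the second 6.99 to 38.1 RPKM.

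Myh6, the alpha chain of the heart, had 0.0229 to 0.355 RPKM in diabetic gastrocnemius and 0.0110 to 0.308 RPKM in control gastrocnemius, against 0.402 to 0.743 RPKM in diabetic adductor and 0.0640 to 0.701 RPKM in control adductor. These rest on 1 to 29 reads a library in gastrocnemius and 4 to 69 in adductor. Myh7b had 0.137 to 0.492 RPKM and 0.0278 to 0.313 RPKM in diabetic and control gastrocnemius, against 0.246 to 0.771 RPKM and 0.182 to 0.778 RPKM in diabetic and control adductor. A count of 3 reads of a heavy chain corresponds to 0.0313 to 0.0702 RPKM, counting error only. Both were under the level set for testing. Mean levels of Myh6 were 0.0922 ± 0.129 and 0.0780 ± 0.116 RPKM in diabetic and control gastrocnemius, against 0.564 ± 0.138 and 0.402 ± 0.212 RPKM in diabetic and control adductor (SD, n = 6 each). Those of Myh7b were 0.240 ± 0.136 and 0.157 ± 0.132 RPKM, against 0.615 ± 0.203 and 0.503 ± 0.253 RPKM. When no filter was applied, the muscle differences on the scale of log2(RPKM + 0.5) were -0.86 ± 0.16 and -0.63 ± 0.16 for Myh6 in diabetic and control mice (adjusted p = 0.00019 and 0.0029) and -0.59 ± 0.18 in both for Myh7b (adjusted p = 0.012 and 0.010). The added 0.5 exceeds most of these levels, so these log2 differences understate the ratios of the means. The 3 microRNA genes in introns of Myh6, Myh7 and Myh7b were at or near 0: Mir208a and Mir208b were listed at 0 in every library and Mir499 above 0 in 1, at 0.885 RPKM. These values come from poly(A) RNA and do not measure the mature microRNAs.

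**Figure D3:**
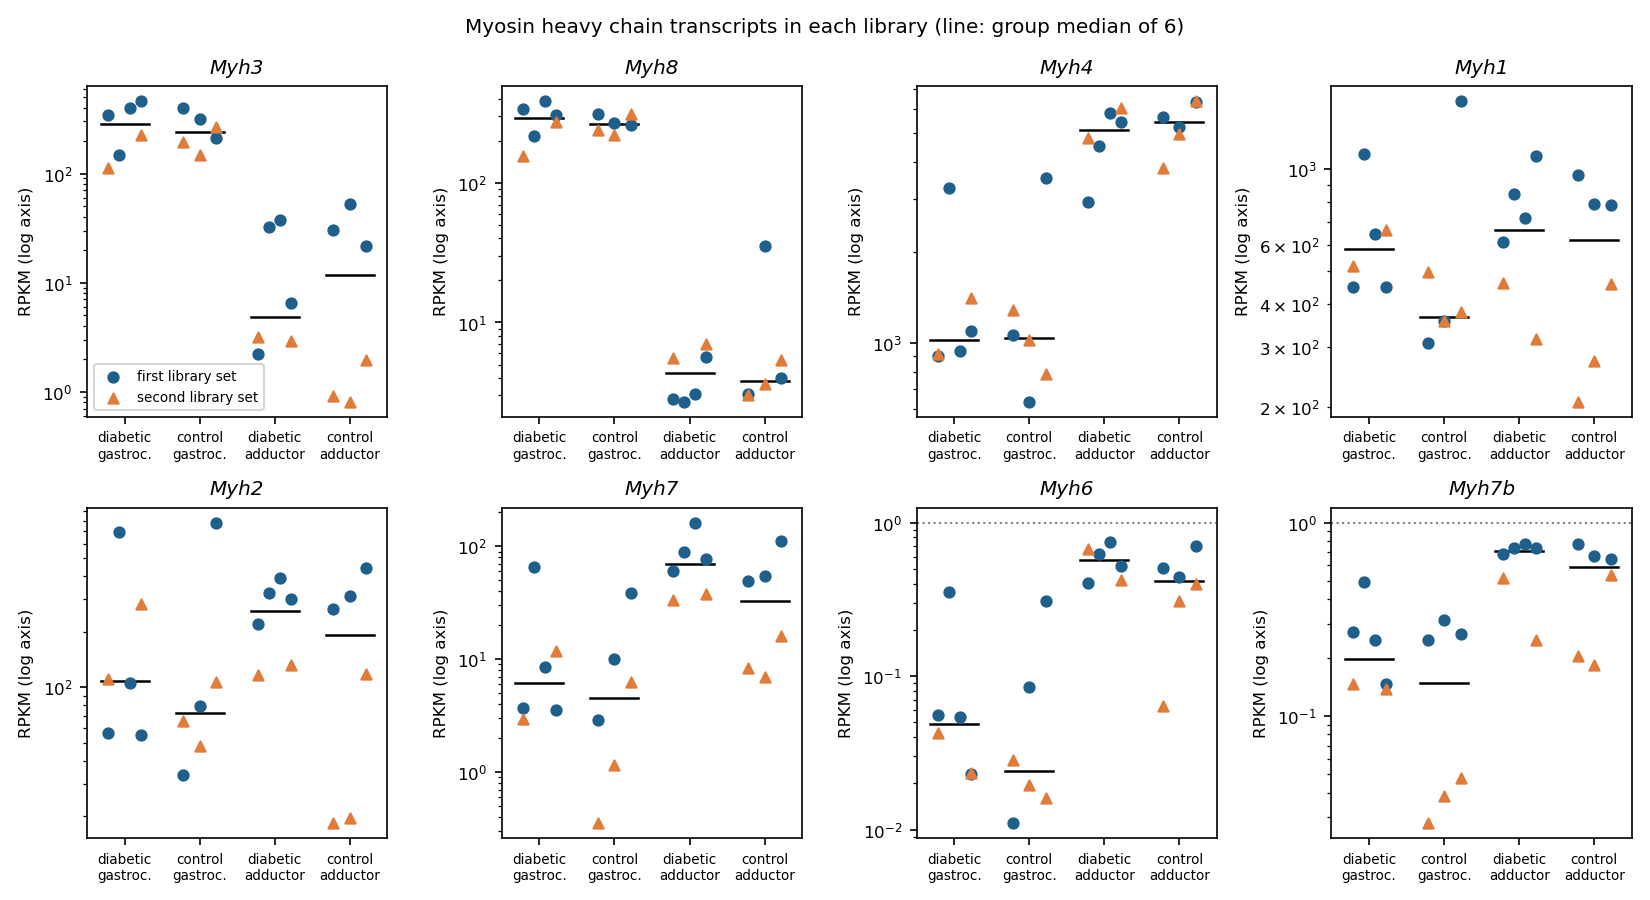
RPKM of each heavy chain in each library on log axes, with circles for the first and triangles for the second library set and a line at the median of each group of 6; the dotted line in the Myh6 and Myh7b panels is an RPKM of 1. Myh3 and Myh8 lie at 111 RPKM or more in every gastrocnemius library and at 52.1 RPKM or less in every adductor library.

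In both diabetic and control mice, 4 of the 6 tested chains passed between the muscles, with Myh3 and Myh8 higher and Myh4 and Myh7 lower in gastrocnemius. Over all 12382 tested genes 56.9% passed in diabetic mice (48.1% higher and 8.83% lower) and 63.1% in control mice (54.4% higher and 8.70% lower), so a call in this comparison was common and a lower call was not. The median log2 difference of all tested genes was 0.55 in diabetic and 0.66 in control mice. Median-of-ratios scaling moved these medians by -0.60 and -0.69 and the split of calls to 3376 higher and 3284 lower in diabetic and 3505 and 3285 in control mice. Under that scaling the 4 chains kept their calls and directions, at 4.27 and 4.30 for Myh3, 5.19 and 4.69 for Myh8, -2.62 and -3.00 for Myh4, and -3.61 and -3.16 for Myh7 in diabetic and control mice. The 4 chains also passed in both mouse groups within the first set alone, where 64.8% of all genes passed in diabetic and 64.1% in control mice, and within the second set alone, where 48.3% and 63.5% did, with the highest adjusted p at 0.047 for Myh7 in diabetic mice of the second set.

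**Figure D4:**
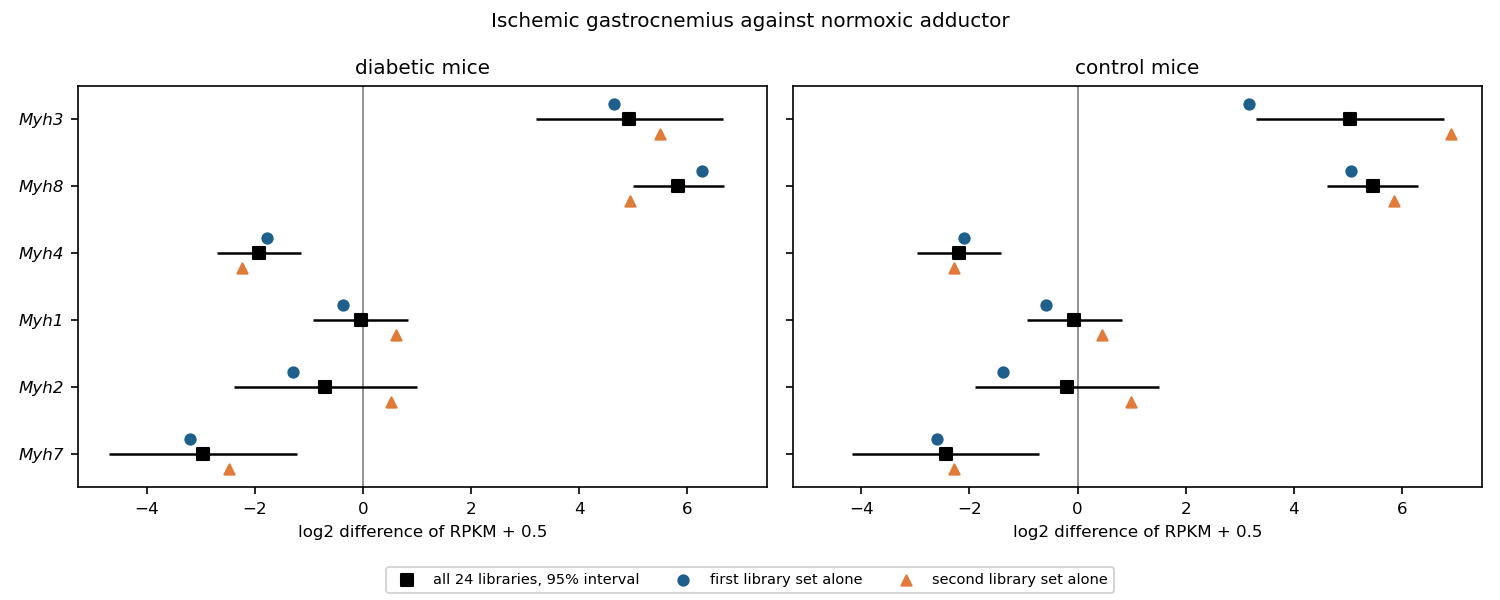
Log2 difference of RPKM + 0.5, gastrocnemius minus adductor, in diabetic and control mice for the 6 tested chains, with squares and 95% intervals for all 24 libraries, circles for the first set alone and triangles for the second set alone. Myh3 and Myh8 lie between 3.18 and 6.90 in every case, and Myh1 and Myh2 lie on either side of 0 in the 2 sets.

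Other genes of the sarcomere were read from lists chosen with earlier results of these data known. For each list the counts under median-of-ratios scaling follow where they differ. Myosin light chains, which bind the neck of the heavy chain, split: of 7 tested, 2 rose and 3 fell in both mouse groups, with a median of -0.0040 in diabetic and -0.50 in control mice, beside 0.55 and 0.66 over all tested genes. Under median-of-ratios scaling 4 fell in control mice. Myl4, the light chain of embryonic muscle and atrium, rose by 6.09 ± 0.51 and 5.64 ± 0.51 in diabetic and control mice, and Myl6b, a chain of slow and developing muscle, by 4.02 ± 0.30 and 3.86 ± 0.30. Mylk2, the light chain kinase of skeletal muscle, fell (-2.16 ± 0.47 and -2.99 ± 0.47), as did Myl3, the light chain of slow fibres and ventricle (-2.18 ± 0.66 and -2.50 ± 0.66). Myl2, the slow regulatory chain, fell too (-2.10 ± 0.79 and -2.05 ± 0.79).

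Genes of developing muscle were mostly higher in gastrocnemius, as Myh3 and Myh8 were. Of 10, 9 rose in each mouse group, with medians of 4.27 in diabetic and 4.01 in control mice, and Mybph fell in diabetic mice (-0.64 ± 0.27, adjusted p = 0.048). Under median-of-ratios scaling 9 rose and 1 fell in both. The fusion gene Tmem8c (myomaker) rose by 7.02 ± 0.58 and 6.41 ± 0.58, Tnnt2, a troponin T of heart and developing muscle, by 5.87 ± 0.54 and 5.80 ± 0.54, Chrng, the fetal acetylcholine receptor subunit, by 5.63 ± 0.43 and 5.29 ± 0.43, and the myogenic factor Myog by 5.02 ± 0.46 and 4.97 ± 0.46 in diabetic and control mice.

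Those fast-fibre genes that passed were lower in gastrocnemius, as Myh4 was. Of 10, 4 fell and 0 rose in diabetic mice (median -0.92), and 8 fell and 0 rose in control mice (median -1.38). Under median-of-ratios scaling 8 fell in diabetic and all 10 in control mice. In diabetic and control mice the differences were -2.70 ± 0.52 and -3.15 ± 0.52 for Mybpc2, the fast myosin-binding protein C, and -1.85 ± 0.34 and -2.28 ± 0.34 for the fast-fibre actinin Actn3. They were -1.63 ± 0.37 and -2.03 ± 0.37 for the calcium pump Atp2a1 and -1.82 ± 0.75 and -2.54 ± 0.75 for the calcium buffer Pvalb. The difference in counts between the mouse groups was not itself a call: 0 of these genes passed in the test of the difference of effects.

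Among slow-fibre genes the counts turned on the scaling. Of 8, 6 rose and 0 fell in diabetic mice (median 1.31) and 7 rose and 0 fell in control mice (median 1.64), but under median-of-ratios scaling 2 rose and 1 fell in diabetic mice (median 0.63) and 5 rose and 1 fell in control mice (median 0.84). Tnni1, the slow troponin I that developing muscle also uses, rose by 3.14 ± 0.32 and 3.62 ± 0.32. Casq2, a calsequestrin of heart, slow and fetal muscle, rose by 4.0 ± 0.34 and 4.10 ± 0.34, and the slow troponins Tnnt1 by 1.23 ± 0.27 and 1.66 ± 0.27 and Tnnc1 by 1.54 ± 0.36 and 1.96 ± 0.36. Under median-of-ratios scaling Tnni1 and Casq2 kept their calls in both mouse groups, and Tnnt1 and Tnnc1 were not called in diabetic mice (0.55 and 0.86). The slow chain Myh7 was lower in gastrocnemius under either scaling, while Tnni1 and Casq2 were higher.

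Of 7 genes for the folding and turnover of myosin, 4 fell in both mouse groups and 0 rose in diabetic and 1 in control mice, with medians of -0.85 and -1.19. In diabetic and control mice Fbxo32, part of a ubiquitin ligase, fell (-2.42 ± 0.37 and -1.62 ± 0.37), as did Trim54, a sarcomere protein of the same family as Trim63 (-1.44 ± 0.26 and -1.65 ± 0.26). Trim63, whose ligase acts on heavy chains, fell (-1.45 ± 0.47 and -1.24 ± 0.47), as did Smyd1, a methyltransferase needed to build sarcomeres (-0.85 ± 0.29 and -1.19 ± 0.29). Hspb1, a small heat shock protein, rose in control mice (1.31 ± 0.47). Under median-of-ratios scaling 6 of the 7 fell in both mouse groups, and Hspb1 was not called (0.50 in control mice).

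Of 10 regulators of fibre type, 1 rose and 2 fell in diabetic mice (median -0.46), and 2 rose and 4 fell in control mice (median -0.22), whereas under median-of-ratios scaling 0 rose and 8 fell in both. In diabetic and control mice Sox6, a repressor of slow-fibre genes, fell (-1.43 ± 0.25 and -1.71 ± 0.25), as did Eya1, a transcriptional cofactor of fast fibres (-0.90 ± 0.22 and -0.85 ± 0.22). Nfix, which acts in the switch from embryonic to fetal muscle, rose by 0.38 ± 0.15 in diabetic mice (adjusted p = 0.032) but stood at -0.30 under median-of-ratios scaling, where in control mice it fell (-0.41). In control mice Ppargc1a, a coactivator of oxidative fibres, fell by 0.94 ± 0.26 and the cofactor Vgll2 rose by 0.94 ± 0.31, though not under that scaling (0.15). Of the other myosin heavy chain genes 5 were tested and all passed in both mouse groups (medians -0.86 and -0.77): the nonmuscle chains Myh9 (1.86 ± 0.40 and 2.31 ± 0.40) and Myh10 (1.06 ± 0.39 and 1.52 ± 0.39) rose, and the nonmuscle chain Myh14 (-2.18 ± 0.42 and -1.42 ± 0.42), the extraocular chain Myh13 (-0.90 ± 0.26 and -1.01 ± 0.26) and the smooth muscle chain Myh11 (-0.86 ± 0.30 and -0.77 ± 0.30) fell, in diabetic and control mice. Under median-of-ratios scaling Myh10 was not called in diabetic mice (0.45). These 5 are named although their values had been seen, and Myh11 is also among the smooth muscle markers.

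Markers of other cell types were set beside these genes, and their counts are to be read against the 48.1% and 54.4% of all tested genes that were higher in gastrocnemius in diabetic and control mice. Of 8 macrophage markers 7 rose in both mouse groups (medians 2.79 in diabetic and 2.98 in control mice), and their summed level was 507 to 1399 RPKM in diabetic and 415 to 1660 RPKM in control gastrocnemius, against 65.8 to 113 RPKM in diabetic and 38.6 to 283 RPKM in control adductor. All 6 fibroblast markers rose (medians 2.55 and 2.84), with a summed level of 1145 to 5130 RPKM in diabetic and 1594 to 6033 RPKM in control gastrocnemius, against 210 to 423 RPKM in diabetic and 167 to 915 RPKM in control adductor. Of 6 endothelial markers 4 rose, a share near that of all genes (medians 0.83 and 1.05, beside 0.55 and 0.66 over all tested genes, and 0.15 and 0.26 under median-of-ratios scaling), with summed levels of 90.0 to 128 RPKM in diabetic and 93.1 to 161 RPKM in control gastrocnemius, against 42.6 to 78.7 RPKM in diabetic and 43.7 to 72.6 RPKM in control adductor. Of 5 smooth muscle markers 3 rose and 2 fell (medians 0.89 and 0.85), with 98.3 to 306 RPKM in diabetic and 87.9 to 426 RPKM in control gastrocnemius, against 47.9 to 84.7 RPKM in diabetic and 51.1 to 110 RPKM in control adductor. None of 5 adipocyte markers passed by limma (medians 0.80 and -0.28), with 312 to 658 RPKM in diabetic and 201 to 519 RPKM in control gastrocnemius, against 127 to 653 RPKM in diabetic and 171 to 546 RPKM in control adductor. Under median-of-ratios scaling the counts in diabetic and control mice were 6 and 7 higher for macrophage markers, with 1 lower in both, 4 and 4 higher for fibroblast markers, and 0 and 1 higher for endothelial markers, with 1 lower in diabetic mice. They were 2 higher and 2 lower in both for smooth muscle markers, and 1 lower in both for adipocyte markers. The part of these cell types in the heavy chain differences was not tested. The 6 cardiac markers, Myh6 among them, reached a sum of 0.303 to 2.84 RPKM in any library, and none was high enough to be tested.

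In summed levels, the 2 gastrocnemius libraries that stood apart both lay outside the range of the other 10 for 3 lists, below it in each. Their macrophage markers summed to 507 RPKM in diabetic library 2 and 415 RPKM in control library 3, against 753 to 1660 RPKM in the other 10. Their developing-muscle genes summed to 910 and 777 RPKM, against 1728 to 3961 RPKM, and their smooth muscle markers to 98.3 and 87.9 RPKM, against 215 to 426 RPKM. Both lay inside the range of the other 10 for fibroblast markers (1941 and 2313 RPKM, against 1145 to 6033 RPKM), endothelial markers (93.4 and 112 RPKM, against 90.0 to 161 RPKM), adipocyte markers (360 and 279 RPKM, against 201 to 658 RPKM), fast-fibre genes (34263 and 34482 RPKM, against 7724 to 47390 RPKM) and slow-fibre genes (1587 and 1599 RPKM, against 1354 to 2830 RPKM). They also lay inside it for light chains, other heavy chains and cardiac markers. These 2 are of the first library set, the other 10 come from both, and the ranges were not split by set. Both libraries lay above the median of the other 10 for fast-fibre genes (21139 RPKM) and below it for slow-fibre genes (1999 RPKM). Of the regulators diabetic library 2 lay above the others (494 RPKM, against 339 to 463 RPKM), as control library 3 did for folding and turnover genes (608 RPKM, against 282 to 603 RPKM). Their Myh2 was 691 and 780 RPKM, against 33.3 to 283 RPKM in the other 10. Their Myh3, at 148 and 212 RPKM, and their Myh8, at 215 and 261 RPKM, lay within the range of the other 10. Their Myh4 and Myh7 lay within the adductor ranges, 2937 to 6367 and 6.99 to 163 RPKM, and their Myh1, at 1106 and 1585 RPKM, lay above the highest adductor value of 1090 RPKM.

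Between diabetic and control mice, 0 of the 6 tested chains passed in either muscle. In gastrocnemius 0.00808% of all tested genes passed (1 gene, with 156 at an unadjusted p under 0.05), and in adductor 0.0323% (4 genes, with 339), so a call was rare in these comparisons. The voom fit also called 0 of the chains, and 1 and 4 of all genes. In gastrocnemius the log2 differences, diabetic minus control, were 0.03 (95% interval -1.70 to 1.77) for Myh3, 0.0092 (-0.84 to 0.86) for Myh8 and 0.11 (-0.66 to 0.89) for Myh4. They were 0.35 (-0.53 to 1.23) for Myh1, 0.55 (-1.14 to 2.25) for Myh2 and 0.83 (-0.90 to 2.57) for Myh7. A 2-fold change in either direction lies outside the intervals of Myh8 and Myh4 and inside those of Myh3 and Myh2. For Myh1 and Myh7 a 2-fold rise lies inside and a 2-fold fall outside.

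The gastrocnemius values turned on the 2 libraries that stood apart. Without diabetic gastrocnemius library 2 the differences were 0.17 for Myh1, 0.089 for Myh2 and 0.25 for Myh7, and without control gastrocnemius library 3 they were 0.69, 1.16 and 1.43. Without both they were 0.52 ± 0.38, 0.70 ± 0.74 and 0.85 ± 0.72. None of these passed by limma.

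In adductor the differences were 0.15 (95% interval -1.59 to 1.88) for Myh3, -0.37 (-1.22 to 0.48) for Myh8 and -0.15 (-0.92 to 0.63) for Myh4. They were 0.32 (-0.55 to 1.2) for Myh1, 1.05 (-0.64 to 2.75) for Myh2 and 1.35 (-0.39 to 3.08, unadjusted p = 0.12) for Myh7. Adductor levels of Myh1, Myh2 and Myh7 were higher in the first set, which holds 4 diabetic and 3 control adductor libraries. With terms for the library set in the fit, the differences were smaller, at 0.109 for Myh1, 0.668 for Myh2 and 1.004 for Myh7. For Myh3, Myh8 and Myh4 they were -0.377, -0.389 and -0.147, and none of the 6 was called. The levels of Myh7 in adductor were 60.5, 89.1, 163 and 77.9 RPKM in the diabetic libraries of the first set and 33.6 and 38.1 RPKM in those of the second. In control mice they were 49.5, 54.4 and 111 RPKM in the first set and 8.36, 6.99 and 16.2 RPKM in the second. The mouse groups overlapped in the first set, with a log2 difference of 0.44, and did not in the second, with 1.81 from 2 diabetic and 3 control libraries (adjusted p = 0.82).

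Myh2 in adductor had 116 and 131 RPKM in diabetic and 18.3, 19.5 and 118 RPKM in control libraries of the second set, where the groups overlapped. Its log2 difference was -0.13 in the first set and 1.81 in the second (adjusted p = 0.82). Myh3 in adductor went in opposite directions, at -1.41 in the first set and 1.09 in the second, and Myh8 at -1.09 and 0.62. Leaving out each library in turn, the adductor differences ran from 0.071 (without control library 4) to 0.52 (without diabetic library 6) for Myh1, from 0.55 (without control library 4) to 1.46 (without control library 3) for Myh2, and from 0.98 (without control library 5) to 1.76 (without control library 3) for Myh7. None of these passed by limma. Since Gapdh also differed between the mouse groups within the second set, diabetes and whatever sets these libraries apart cannot be told apart there.

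**Figure D5:**
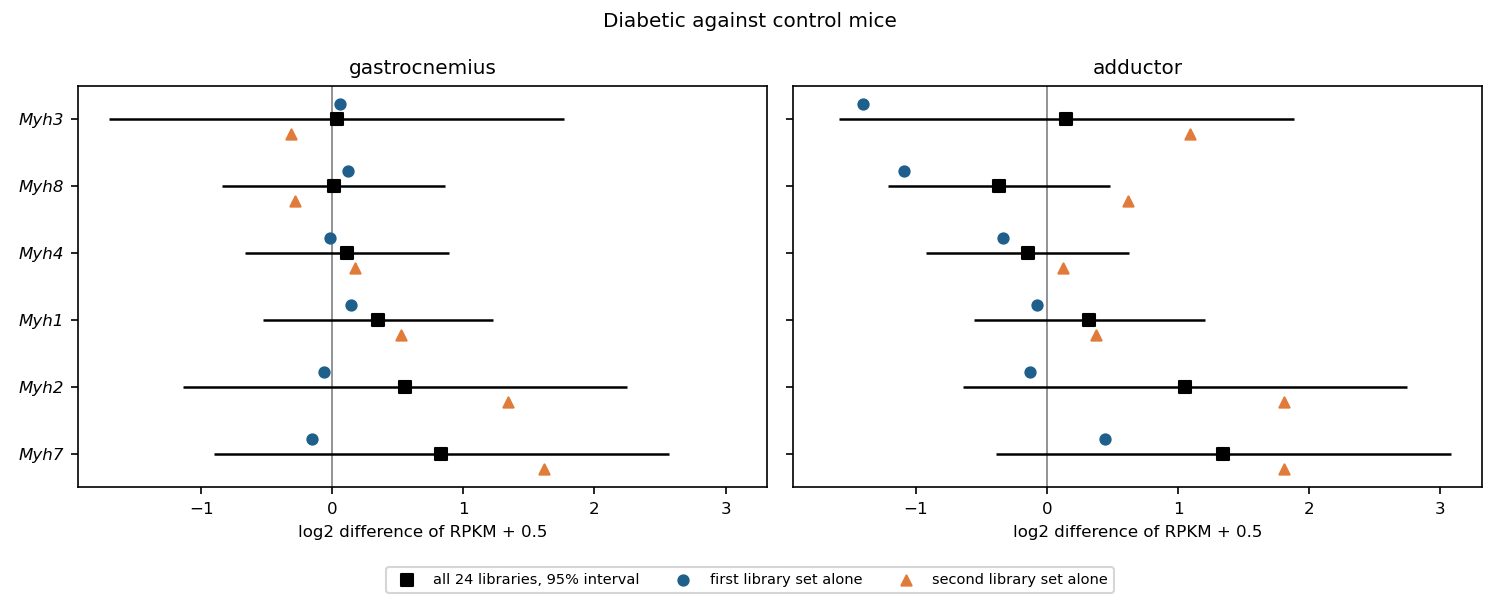
Log2 difference of RPKM + 0.5, diabetic minus control, in gastrocnemius and adductor for the 6 tested chains, with squares and 95% intervals for all 24 libraries, circles for the first set alone and triangles for the second set alone. Every interval spans 0, and the first-set value lies below the second-set value for each chain in adductor.

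The difference between the diabetes effects of the muscles, gastrocnemius minus adductor, also passed for 0 of the 6 chains and for 0 of all tested genes (154 at an unadjusted p under 0.05, and 0 by voom). It ran from -0.52 ± 1.18 for Myh7 and -0.50 ± 1.15 for Myh2 to 0.38 ± 0.58 for Myh8. In the lists of light chains, fast-fibre, slow-fibre and developing-muscle genes, regulators, folding and turnover genes, other heavy chains and cell type markers, 0 genes passed in either diabetes comparison or in this difference. In gastrocnemius the median difference was 0.13 for slow-fibre genes (first set 0.14, second set 0.38) and 0.06 for fast-fibre genes (0.27 and 0.45), beside -0.06 over all tested genes. In adductor it was 0.56 for slow-fibre genes (0.34 and 0.74) and -0.45 for fast-fibre genes (-0.25 and -0.20), beside 0.04. The fast-fibre values over all libraries lie outside those of both sets, between which diabetic libraries are split 4 and 2 and control libraries 3 and 3.

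How the chains varied among themselves was read from log2 levels over the 24 libraries after the mean of each group within each set was subtracted. Among the adult chains Pearson's r was 0.88 for Myh2 with Myh7, 0.87 for Myh1 with Myh2, 0.84 for Myh4 with Myh1, 0.81 for Myh4 with Myh2, 0.64 for Myh1 with Myh7 and 0.63 for Myh4 with Myh7. Each value was lower without the 2 gastrocnemius libraries that stood apart: over the other 22 libraries the same pairs gave 0.75, 0.64, 0.46, 0.31, 0.19 and -0.01. For the developmental chains r lay between -0.14 and -0.01 for every pair of Myh3 or Myh8 with an adult chain, and was 0.28 with each other. Over the 22 libraries r with an adult chain was 0.23 to 0.47 for Myh3 and 0.10 to 0.23 for Myh8. When control adductor library 2 was left out as well, it was 0.26 to 0.51 for Myh3 and 0.48 to 0.61 for Myh8, and Myh3 with Myh8 gave 0.05.

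The genes most like each chain, 3 per chain among 12376 others, were Igf2 (0.94), Postn (0.86) and Mfap2 (0.85) for Myh8, and Lrrc75a (0.80), Nme7 (0.79) and Asb3 (0.79) for Myh3. For Myh4 they were Abcb4 (0.97), Cacna1s (0.96) and Slc25a12 (0.96), and for Myh1 Smtnl1 (0.92), Mybpc1 (0.91) and Tcaim (0.91). For Myh2 they were Col22a1 (0.97), Ppp1r1a (0.97) and Cyp4f39 (0.96), and for Myh7 Ppp1r1a (0.92), Sqrdl (0.90) and Myl2 (0.90). Over the 22 libraries the values were 0.77 to 0.83 for the 3 genes of Myh3, 0.82 to 0.88 for those of Myh4, 0.69 to 0.75 for Myh1, 0.90 to 0.91 for Myh2 and 0.77 to 0.84 for Myh7. For Myh8 they were 0.85 to 0.94, and without control adductor library 2 as well 0.64 for Igf2, 0.61 for Postn and 0.33 for Mfap2. These values share library and depth and are descriptions. In control adductor library 2, where Myh8 was 35.5 RPKM, Igf2 was also the highest of its group, at 120 RPKM against a group median of 8.23 RPKM.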

How the data were processed

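Per the file headers, the authors computed RPKM with HOMER over the exons of RefSeq transcripts of mouse build mm9, and the submitters' processing notes also name TopHat, with no versions. No strand option is shown and the treatment of reads that match several places is not given in the sources used here. Undoing the division by length and library total returned whole reads, within 0.01, for 99.97% of RPKM values above 0. The table held 33022 transcripts under 24016 symbols, of which each was represented by its transcript of highest mean. Each RPKM is relative to its library total, so abundant transcripts lower all others.

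The 12382 genes at 1 RPKM or more in 6 or more libraries were tested. The log2 of RPKM + 0.5 was fitted in limma 3.58.1 (R 4.3.3) with a mean for each of the 4 groups and its trend option, and 5 contrasts were adjusted by the Benjamini-Hochberg method over all tested genes and called at 0.05. Differences are given ± standard error. Shares are of the summed RPKM of the 8 chains. The alternatives were other pseudocounts, no filter, median-of-ratios scaling, set terms, each set alone, voom on recovered reads, a replicate block and leaving out each library. Leaving out the libraries that stood apart was added after seeing the data. The fits were also run on simulated data with independent normal noise. These held no library sets and no outlying libraries, so that run does not speak to either.

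The 60 pairs of libraries within groups all differed beyond counting noise (chi-square of recovered reads over its degrees of freedom, 8.97 to 269). Same-numbered gastrocnemius and adductor libraries deviated together from their group means (r of 0.25 to 0.74 over 12 pairs), which by the rule used here pairs them, though within the library sets r ran from -0.09 to 0.63. Diabetic and control libraries of the same number did not pair (r of -0.66 to 0.82). Promoter windows came from RefSeq (GRCm38.p6), shared stretches from GENCODE M21 with mafft 7.526 alignments, and no coordinates were moved between builds. The 8 members and the 14 gene lists were chosen with earlier results of these data known. Text names the 8 chains, up to 4 called members per list and contrast by smallest p, and the 3 genes most like each tested chain. A member of the regulator list and a motif searched for are not reported here.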

Additional observations from a re-analysis of the deposited data

Results flagged for a closer look

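Values of 6 libraries were screened for a highest or lowest library whose gap to the next, over the range of its group, exceeded Dixon's 95% critical value. Of 72 sets of values 17 passed. Among independent values from a normal distribution about 1 in 20 such sets would pass. The 72 sets reuse the same libraries as RPKM, shares and sums and mix both library sets, so this rate need not hold here. Of the 17, 14 came from 2 libraries.

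Diabetic gastrocnemius library 2 was far above the other 5 of its group in Myh4 (3266 against 904 to 1411 RPKM), Myh1 (1106 against 450 to 661 RPKM), Myh2 (691 against 54.7 to 283 RPKM), Myh7 (65.3 against 2.93 to 11.7 RPKM) and Myh6 (0.355 against 0.0229 to 0.0554 RPKM). Its summed RPKM of the 8 chains was 5492, against 1814 to 2869. Its share of Myh7 was 1.19%, against 0.149% to 0.409%, and its share of Myh6 0.00646%, against 0.000813% to 0.00264%.

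Control gastrocnemius library 3 was far above the other 5 of its group in Myh4 (3524 against 635 to 1287 RPKM), Myh1 (1585 against 307 to 498 RPKM), Myh2 (780 against 33.3 to 107 RPKM), Myh7 (38.3 against 0.351 to 10.1 RPKM) and Myh6 (0.308 against 0.0110 to 0.0852 RPKM). Its summed RPKM was 6402, against 1666 to 2285. The RPKM of Myh3 and Myh8 did not stand out in either library.

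Control adductor library 2 was far above the other 5 of its group in Myh8, at 35.5 against 3.0 to 5.34 RPKM, in the share of Myh8, at 0.550% against 0.0444% to 0.0767%, and in the joint share of Myh3 and Myh8, at 1.36% against 0.0843% to 0.482%.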

How the results depend on the processing

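In both muscle comparisons Myh3, Myh8, Myh4 and Myh7 passed under all 34 alternatives, and in the diabetes comparisons and their difference 0 chains passed under any. The replicate block left the 4 muscle calls at 4, with an adjusted p for Myh7 of 3.1e-05 in diabetic and 0.00015 in control mice by limma, and changed no other call of a chain. The library sets follow the same numbers in both muscles, so this block also takes up the gap between the sets. Set terms in limma gave an adjusted p for Myh7 of 0.00079 in diabetic and 0.0058 in control mice. Every value that changed sign was of a chain that had not passed, and the cause was not tested. In the muscle comparisons the second set alone gave 0.61 and 0.46 for Myh1 and 0.52 and 0.98 for Myh2 in diabetic and control mice. In adductor, diabetic minus control, the first set alone gave -1.41 for Myh3, -0.077 for Myh1 and -0.13 for Myh2, the second set alone 0.62 for Myh8 and 0.13 for Myh4, and set terms -0.38 for Myh3. In gastrocnemius the first set alone gave -0.015 for Myh4, -0.060 for Myh2 and -0.16 for Myh7, the second set alone -0.31 for Myh3 and -0.29 for Myh8, set terms -0.094 and -0.047 for the same chains, and voom -0.00083 for Myh8. In the difference of effects the first set alone gave 1.47 for Myh3 and 0.070 for Myh2, the second set alone -0.91 for Myh8, and set terms 0.28 for Myh3. Leaving out each library in turn gave ranges that crossed 0 in the muscle comparisons for Myh1 (-0.24 to 0.12 in diabetic and -0.41 to 0.13 in control mice) and Myh2 in control mice (-0.80 to 0.21). They also did so in adductor for Myh3 (-0.35 to 0.71) and Myh8 (-0.53 to 0.15), and in gastrocnemius for Myh3 (-0.14 to 0.27), Myh8 (-0.096 to 0.16) and Myh4 (-0.16 to 0.43). In the difference of effects they did so for Myh3 (-0.68 to 0.39), Myh8 (-0.14 to 0.53), Myh4 (-0.014 to 0.58), Myh1 (-0.17 to 0.37), Myh2 (-0.96 to 0.11) and Myh7 (-1.10 to 0.084). In diabetic adductor the second set alone gave shares beyond 1 SD of the reported mean: 90.5% for Myh4, 6.69% for Myh1, 2.08% for Myh2, 0.602% for Myh7 and 0.105% for Myh8. Shares in control adductor also differed by set. In the first and second set they were 81.4% and 93.2% for Myh4, 12.1% and 5.63% for Myh1, and 4.79% and 0.839% for Myh2. These stayed within 1 SD of the reported mean, but that SD includes the gap between the sets. Over all genes, calls in the adductor comparison numbered 14 in the second set alone and 1 in the first set alone, without a filter or without the 2 gastrocnemius libraries, beside 4 reported, and fell between 1 and 4 when each library was left out. In gastrocnemius they numbered 27 in the second set alone, 4 without a filter, 2 with a pseudocount of 1, and 0 in the first set alone or with set terms, beside 1 reported, and 0 to 3 when each library was left out. The difference of effects gave 1 in the second set alone, beside 0. Depth limited Myh6 and Myh7b, which had 1 to 73 reads a library.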
